A study of Mus musculus with 4 samples.

Results

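The peaks described here lie at 10 genes of the Notch pathway, namely the receptors Notch1, Notch2, Notch3 and Notch4, the ligands Jag1, Jag2, Dll1 and Dll4, and the transcription factors Hes1 and Hes6. They come from CUT&RUN on E13.5 (embryonic day) molar germs taken from wild-type mice of the CD1 strain, an assay in which an antibody directs a nuclease to its target on chromatin and the released fragments are sequenced. One antibody recognised pSmad1/5, phosphorylated Smads of the BMP branch, and the other pSmad3, a phosphorylated Smad of the TGF-β branch. Each was used on 2 libraries, and 1 list of peaks common to both libraries was deposited per antibody, so there is no value per library, no replicate error and no test below. A peak is counted at a gene when at least 1 bp of it lies in the gene or within 10 kb on either side, called the locus. All 10 genes were found among 21523 protein-coding genes of chromosomes 1 to 19 and X. The genes were chosen by name, with which of them hold a peak of either list already known, so their counts are a description and support nothing about the pathway.

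In Notch signalling a membrane-bound ligand of the Jagged or Delta-like family on one cell engages a Notch receptor on its neighbour. The receptor is then cut by gamma-secretase, and its intracellular domain enters the nucleus and works with the DNA-binding protein Rbpj to switch on genes such as those of the Hes family, which are repressors of the basic helix-loop-helix class. In developing teeth the pathway is known for patterned expression of its receptors and ligands in epithelium and mesenchyme. Whole tooth germs were profiled, so a peak cannot be assigned to epithelium, mesenchyme or vessels, and a peak in a few cells cannot be told apart from a weak one in many. These lists measure no expression, so the identity of the tissue was not checked by marker levels.

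The 1 promoter of these genes that carried a peak was that of Notch1, under a pSmad1/5 peak. Promoter sequences (RefSeq, GRCm38.p6, the assembly of mm10) were matched for 9 of the 10 genes, with 11 promoters in all, and Hes1 was not matched. The 250 bases before the annotated start are given 5′ to 3′ for Notch1, which had the peak, and for Dll4 and Dll1, whose nearest peaks of either antibody lay outside them. Capitals mark CAGAC, the short Smad motif, and GGCGCC, a GC-rich Smad element, on either strand (CAGAC reads as GTCTG on the other).
Notch1, chr2:26503823-26504072, minus strand: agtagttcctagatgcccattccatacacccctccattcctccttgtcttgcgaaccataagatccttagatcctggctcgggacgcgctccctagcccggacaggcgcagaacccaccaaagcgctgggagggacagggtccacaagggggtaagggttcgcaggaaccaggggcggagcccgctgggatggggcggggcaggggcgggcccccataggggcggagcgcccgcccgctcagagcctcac
Dll4, chr2:119325534-119325783, plus strand: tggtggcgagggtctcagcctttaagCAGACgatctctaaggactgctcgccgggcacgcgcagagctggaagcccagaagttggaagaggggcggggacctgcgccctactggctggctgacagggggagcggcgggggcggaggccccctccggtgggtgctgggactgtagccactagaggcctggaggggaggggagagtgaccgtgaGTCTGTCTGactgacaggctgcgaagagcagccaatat
Dll1, chr17:15375824-15376073, minus strand: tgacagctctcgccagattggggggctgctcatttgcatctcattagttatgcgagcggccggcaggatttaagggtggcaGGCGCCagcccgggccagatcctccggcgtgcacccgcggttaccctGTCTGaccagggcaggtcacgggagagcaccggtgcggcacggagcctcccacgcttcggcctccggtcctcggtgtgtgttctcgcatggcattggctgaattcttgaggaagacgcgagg
The Notch1 sequence held none of these letters, Dll4 held 3 matches to CAGAC, of which a pair overlap by 1 base, and this Dll1 promoter held 1 of each motif. It is 1 of 2 listed for Dll1, lies inside the gene, and was chosen, after the matches were seen, as the 1 promoter of the 11 with the GC-rich element. The other, at the 5′ end of Dll1 (chr17:15376933-15377182), held 2 matches to CAGAC and none to the GC-rich element. CAGAC was present in 7 of the 11 promoters, counting both of Dll1 and both of Hes6. The share over 21045 protein-coding promoters of the same length was 40.7%. GGCGCC was present in 1, against 12.4%, and GTGGGAA, the motif of Rbpj, in 0, against 5.31%. A match is a run of letters and not a binding site. Among 17274 protein-coding genes with a promoter in the table, 3.56% had a pSmad1/5 peak on one and 4.27% a pSmad3 peak.

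A pSmad1/5 peak lay in the locus of 6 of the 10 genes (60%), against 27.3% of all protein-coding genes. A pSmad3 peak was present at 4 of them (40.0%), against 24.4%. Notch1, Notch3 and Jag2 had peaks of both antibodies, a combination found at 14.1% of protein-coding genes. Notch4, Jag1 and Dll4 had pSmad1/5 alone (13.2% of protein-coding genes), Notch2 had pSmad3 alone (10.3%), and Dll1, Hes1 and Hes6 had neither (62.4%). A gene has an antibody alone when no call of the other list reached its locus, and weaker signal, below what the caller accepted, could not be seen. By role, pSmad1/5 peaks lay at 3 of 4 receptors, 3 of 4 ligands and 0 of 2 Hes genes, and pSmad3 peaks at 3 of 4 receptors, 1 of 4 ligands and 0 of 2 Hes genes.

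**Figure D1:**
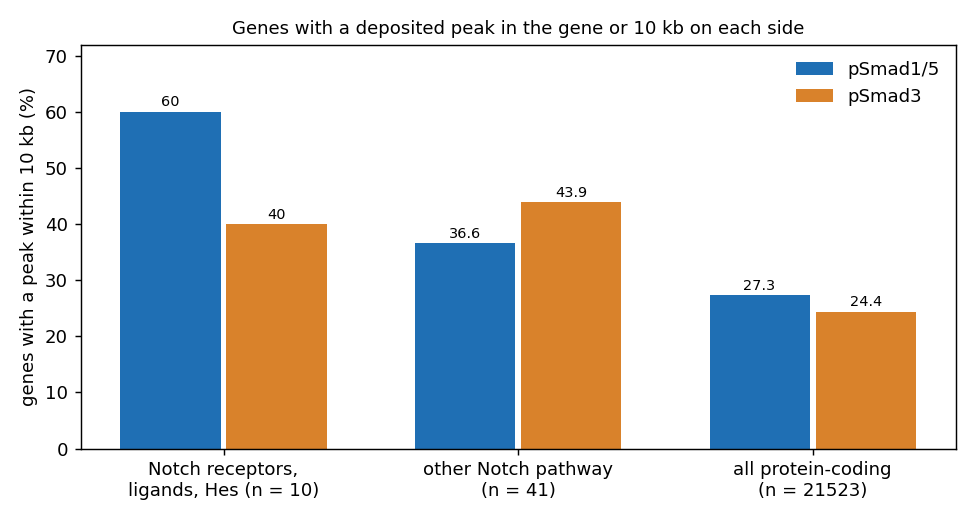
Bars give the percentage of genes with a deposited peak in the gene or 10 kb on each side, for pSmad1/5 (blue) and pSmad3 (orange), in the 10 Notch receptor, ligand and Hes genes, 41 other Notch pathway genes and 21523 protein-coding genes. The 10 genes stand at 60% and 40.0%, the other pathway genes at 36.6% and 43.9%, and all genes at 27.3% and 24.4%; there are no error bars because each antibody has 1 list.

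Longer loci are met by peaks more often, and the genes differ in length. Dll1, Dll4, Hes1 and Hes6 have loci under 30 kb, a class whose share over protein-coding genes was 20.6% for pSmad1/5 and 18.5% for pSmad3, and here 1 and 0 of these 4 had one. Notch4, Jag1 and Jag2 fall between 30 and 60 kb (27.6% and 24.8%), where all 3 had pSmad1/5 and 1, Jag2, had pSmad3. Notch1 and Notch3 fall between 60 and 120 kb (31.3% and 29.2%), and both had both. Notch2, the longest, lies in the class over 120 kb (41.5% and 34.8%), and had a pSmad3 peak only.

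The 6 genes with pSmad1/5 held 11 peaks. Lines of a list that share total signal, maximum and region of the maximum are pieces of 1 call, and these 11 peaks came from 8 calls. The 6 pSmad3 peaks came from 6 calls. Of the pSmad1/5 peaks 6 touched the gene itself, as did 4 of the pSmad3 peaks, and the remaining 5 and 2 lay in the flanks, most of them over neighbouring genes or non-coding transcripts. Peaks on the gene body alone were found at 4 of the 10 genes for pSmad1/5 and 3 for pSmad3, against 18.4% and 16.8% of protein-coding genes.

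**Figure D2:**
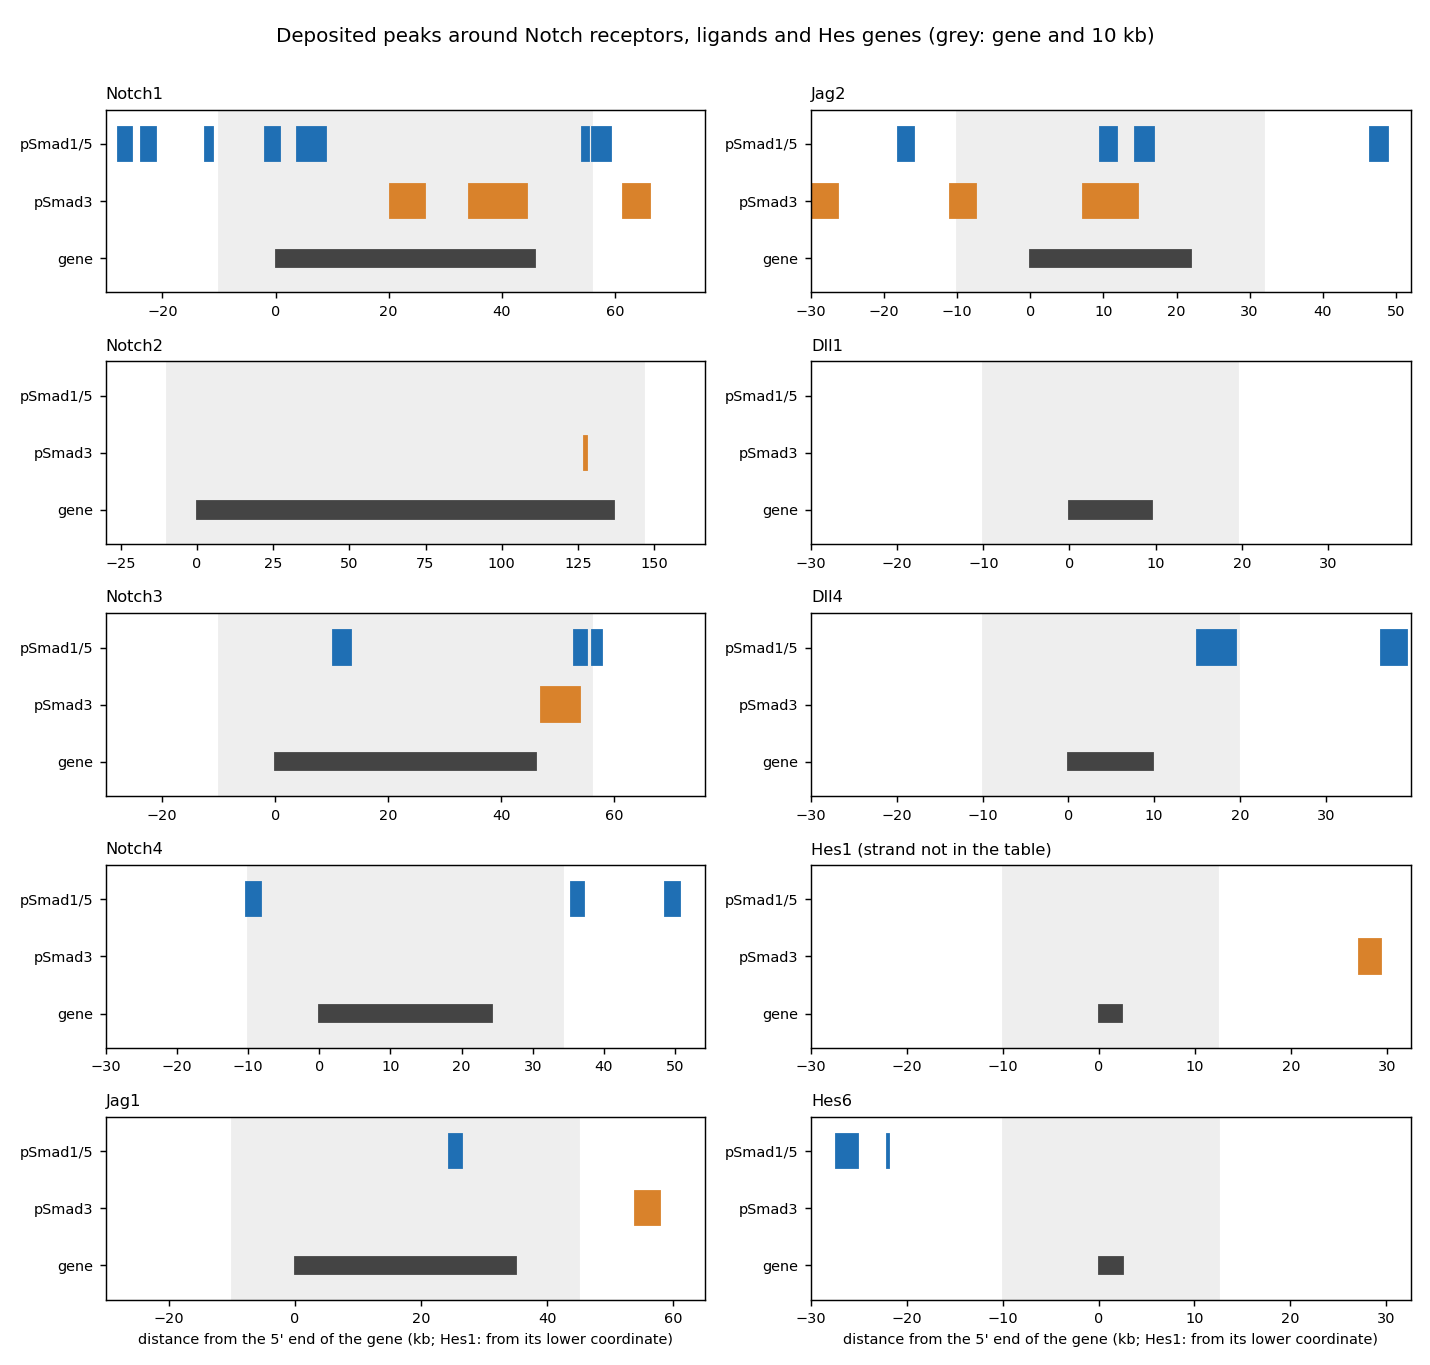
Each panel shows 1 gene (dark bar, running 5′ to 3′ from left to right) with the pSmad1/5 peaks (blue) and pSmad3 peaks (orange) within 30 kb, against distance in kb from its 5′ end (for Hes1, from its lower coordinate); grey shading is the gene and 10 kb on each side. Notch1 and Jag2 carry peaks of both antibodies on the gene, while no peak falls in the shading at Dll1, Hes1 or Hes6.

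Notch1, the receptor with the most peaks here, lies on chromosome 2 from 26457902 to 26503822 on the minus strand (mm10). On the gene, its pSmad1/5 peaks lay nearer the 5′ end than its pSmad3 peaks. A pSmad1/5 call came in 2 pieces, one over the 5′ end from 26503020 to 26505769 and one inside the gene from 26494826 to 26499973, which begins 3849 bp downstream of the 5′ end. The total signal of the call was 77888, above 67.7% of the pSmad1/5 list, and its maximum of 16, equal to the list median of 16, lay in the piece inside the gene and not over the promoter. The pSmad3 peaks ran from 26477388 to 26483550, across the middle of the gene, and, nearer the 3′ end, from 26459432 to 26469708. Their maxima of 18 and 19 stood above the pSmad3 list median of 13, and their totals lay above 77.9% and 91.8% of that list. The nearest pSmad1/5 and pSmad3 peaks on the gene were 11276 bp apart. The pSmad1/5 peaks covered 13.0% of the gene and the pSmad3 peaks 35.8%, against 1.42% and 2.07% over protein-coding gene bodies. Median peak width in the whole lists was 2385 bp for pSmad1/5 and 4693 bp for pSmad3.

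A further pSmad1/5 peak of the Notch1 locus lay 8279 bp beyond the 3′ end, over the non-coding gene 0610009E02Rik, and was 1 of 2 pieces of a call whose other piece, at 10079 bp, fell just outside the 10 kb limit. Beyond the 5′ end, 3 pieces of 1 pSmad1/5 call began 11041 bp away, with a total above 90.6% of the list and a maximum of 21. Within 100 kb of Notch1 lay 10 pSmad1/5 peaks (6 calls) and 8 pSmad3 peaks (7 calls). Among them were a pSmad1/5 peak at 87.4 kb and a pSmad3 peak only 34 bp wide at 85.9 kb, both on Egfl7, which encodes a secreted endothelial protein and hosts the microRNA gene Mir126a.

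Notch3, a receptor best known from vascular smooth muscle and pericytes, lies on chromosome 17 from 32120820 to 32166896 on the minus strand. A pSmad1/5 peak inside the gene (32153553 to 32156755) was low in its list by both measures, with a maximum of 12 and a total above 14.2% of the list. Past the 3′ end, a pSmad1/5 call in 2 pieces lay 6847 and 9905 bp away (maximum 16, percentile 27.1). A pSmad3 peak from 32112955 to 32119909 ended 911 bp from the gene and shared 1019 bp with the nearer of these pieces. Its maximum was 11, below the list median, and its total stood above 61.3% of the list. These peaks past the 3′ end also touched the predicted genes Gm30729 and, for the nearer piece and the pSmad3 peak, Gm38585, so which gene they belong to cannot be told apart.

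Notch2 and Notch4 each had 1 peak. In Notch2 (chromosome 3, 98013538 to 98150367), a receptor broadly present in mesenchyme, a pSmad3 peak from 98140426 to 98141651 lay near the 3′ end, 126888 bp from the 5′ end. Its maximum was 15 and its total above 57.1% of the list. No pSmad1/5 peak lay within 100 kb of Notch2, and the nearest was 150141 bp away. Notch4 (chromosome 17, 34564286 to 34588543), a receptor mainly of endothelium, had a pSmad1/5 peak from 34554016 to 34556087, 8199 bp before its 5′ end and over the predicted gene Gm31560. The maximum of 23 was the highest among the pSmad1/5 peaks of these loci, but it lay outside the peak itself, farther from the gene, and the total was above only 37.4% of the list. The nearest pSmad3 peak to Notch4 was 32358 bp away.

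Among the ligands, Jag2 had peaks of both antibodies at the same place. Jag2 (chromosome 12, 112907803 to 112929812, minus strand), a ligand expressed in epithelia, had 2 pieces of 1 pSmad1/5 call inside the gene, from 112917990 to 112920226 and from 112912868 to 112915540. This call had the highest total among the pSmad1/5 peaks of these loci, 135110, above 85.8% of the list, and a maximum of 20, which lay inside the gene, outside both pieces but within the pSmad3 peak there. A pSmad3 peak from 112915111 to 112922658 covered all 2237 bp of the first piece and 430 bp of the second. Its maximum of 11 was below the list median, while its total was above 66.8% of the list, and the microRNA gene Mir6941 lay within it. Another pSmad3 peak lay 7397 bp before the 5′ end of Jag2, over Nudt14, with a maximum of 11 and a total above 76.3% of the list. Together, pSmad1/5 peaks covered 22.3% and pSmad3 peaks 34.3% of the gene, against 1.42% and 2.07% over protein-coding gene bodies.

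Jag1 (chromosome 2, 137081451 to 137116520), the other Jagged ligand, had a pSmad1/5 peak inside the gene from 137090063 to 137092064, 24456 bp from the 5′ end. It contained its own maximum of 21, above the list median, and its total lay near the middle of the list (percentile 48.3). The nearest pSmad3 peak was 18822 bp away, on Slx4ip. Dll4, the Delta-like ligand of arterial endothelium (chromosome 2, 119325784 to 119335666), had a pSmad1/5 peak 5131 bp past its 3′ end (119340797 to 119345373), with a maximum of 15 and a total above 23.3% of the list. It touched no annotated gene, and its maximum lay outside it, nearer to Dll4. No pSmad3 peak lay within 100 kb of Dll4, the nearest being 445589 bp away.

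Dll1, Hes1 and Hes6 had no peak in the locus. For Dll1 (chromosome 17, 15367354 to 15376932), a ligand of neurogenesis and somite formation, the nearest pSmad1/5 peak was at 42549 bp and the nearest pSmad3 peak at 32238 bp, both on Fam120b. Hes1 (chromosome 16, 30065357 to 30067796), the best known Notch target, had no pSmad1/5 peak within 100 kb and a pSmad3 peak 24596 bp away, on Gm20040. Hes6 (chromosome 1, 91411483 to 91414038), a Hes family member that antagonises Hes1, had the nearest pSmad1/5 peak at 21904 bp and the nearest pSmad3 peak at 41246 bp, both on Per2, a circadian clock gene. Within 100 kb, 8 of the 10 genes had a pSmad1/5 peak and 9 a pSmad3 peak, against 59.9% and 54.2% of protein-coding genes.

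**Figure D3:**
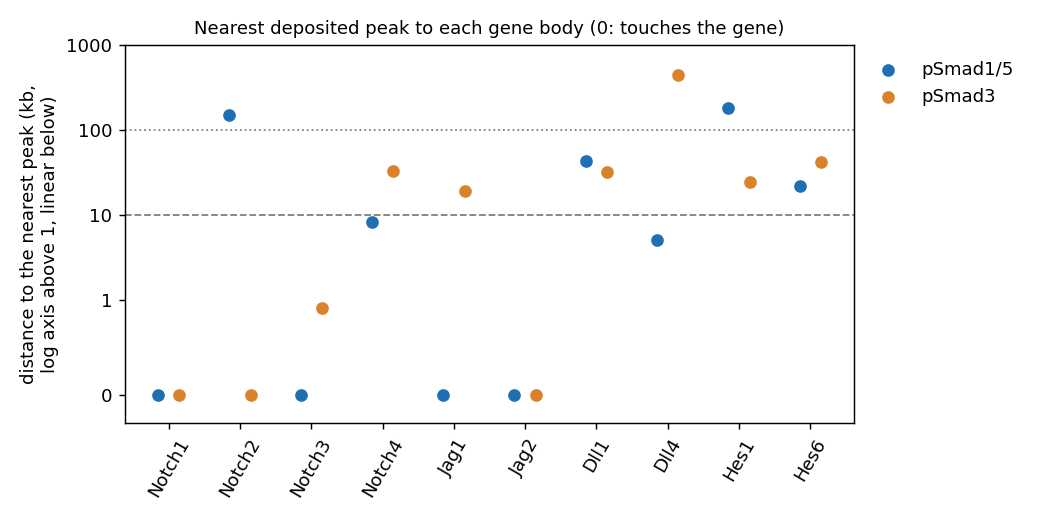
Points give the distance in kb (logarithmic above 1 kb, linear below) from each gene body to the nearest pSmad1/5 peak (blue) and pSmad3 peak (orange), with the dashed line at 10 kb and the dotted line at 100 kb. Only Notch2 and Hes1 lie over 100 kb from pSmad1/5 and only Dll4 from pSmad3.

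Peaks close to the 10 kb limit lay at Notch1 and Notch3. The farthest pSmad1/5 peak inside it was at 9905 bp from Notch3, and the closest outside were at 10079 and 11041 bp from Notch1. For pSmad3 peaks the farthest inside was at 7397 bp from Jag2, and the closest outside were at 15538 bp from Notch1 and 18822 bp from Jag1. A flank of 50 kb took in 8 of the 10 genes for pSmad1/5 and 9 for pSmad3, against 47.3% and 42.4% of protein-coding genes. Counting only peaks whose total reached the list median, 2 genes, Notch1 and Jag2, had pSmad1/5 (14.4% of protein-coding genes), and pSmad3 stayed at 4 (14.1%). Within 5 kb of a gene end, 1 gene, Notch1, had pSmad1/5 (16.4% of protein-coding genes) and 2 genes, Notch1 and Notch3, had pSmad3 (15.4%).

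The median maximum of these peaks equalled that of each list, while total signals of the pSmad3 peaks all lay above the middle of theirs. The values are coverage in the authors' own scaling, given for a whole call, and are not compared between antibodies. Maxima of the 11 pSmad1/5 peaks ran from 12 to 23 with a median of 16, equal to the median of the list (quartiles 15 and 19). Maxima of the 6 pSmad3 peaks ran from 11 to 19 with a median of 13, again that of the list (quartiles 12 and 15). They were 11, 11, 11, 15, 18 and 19, so no single pSmad3 peak stood at that median. By total signal the pSmad1/5 peaks ranged over percentiles 14.2 to 85.8 (median 37.4) and the pSmad3 peaks over 57.1 to 91.8 (median 71.5). All 6 pSmad3 peaks stood above the middle of their list. So did 4 of the pSmad1/5 peaks (2 calls), those on the Notch1 and Jag2 genes. The region of the maximum lay fully inside the peak for 2 of the 11 pSmad1/5 peaks and 4 of the 6 pSmad3 peaks, against 27.1% and 70.0% of each list. The pSmad1/5 peaks were 1218 to 5148 bp wide, with a median of 2237 bp against 2385 bp in the whole list. The pSmad3 peaks were 1226 to 10277 bp wide, with a median of 6559 bp against 4693 bp in the whole list. Whether width plays a part in the pSmad3 totals was not tested.

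**Figure D4:**
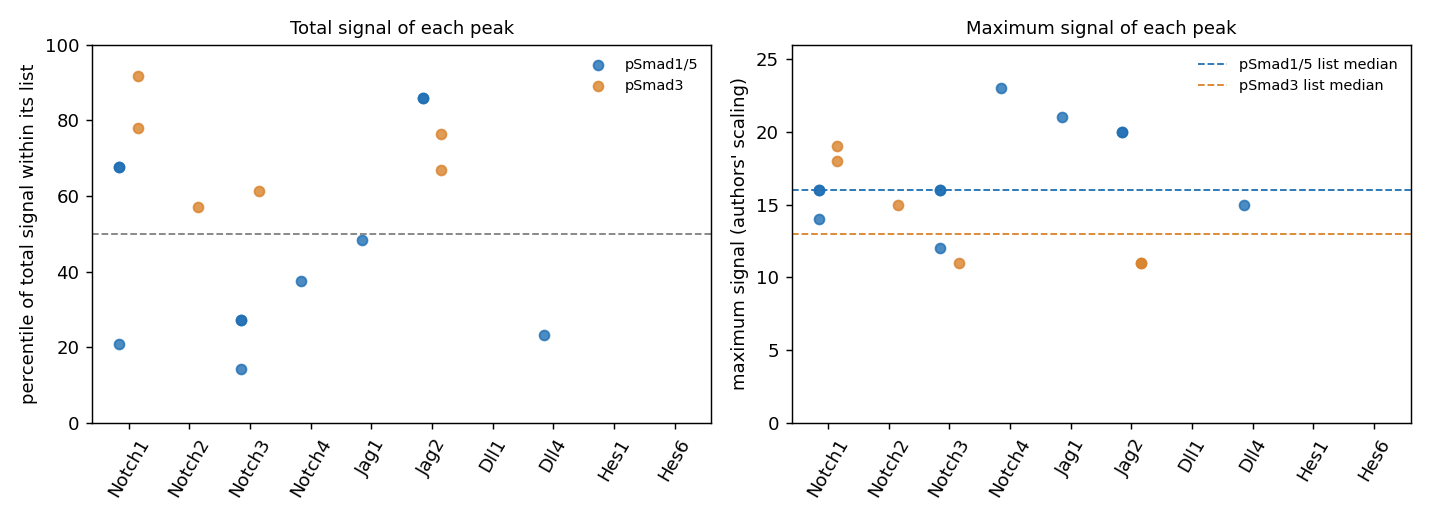
Each point is 1 peak in the locus of the gene on the horizontal axis, for pSmad1/5 (blue) and pSmad3 (orange). Left, percentile of its total signal within its own list (dashed line at 50). Right, maximum signal in the authors' scaling with each list's median dashed. Darker points are peaks of equal value, which are pieces of 1 call except on the right at Jag2 for pSmad3, where 2 calls share a maximum of 11. Scales of the antibodies cannot be compared; all pSmad3 points on the left lie above 50, and maxima lie between 11 and 23.

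Peaks of the antibodies met at Notch3 and Jag2. Of the 11 pSmad1/5 peaks 3 overlapped a pSmad3 peak by at least 1 bp (27.3%), against 21.9% of the whole list. Of the 6 pSmad3 peaks 2 overlapped a pSmad1/5 peak (33.3%), against 23.1%. At Notch1 both antibodies had peaks on the gene with no overlap.

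Other genes of the Notch pathway also had peaks of both antibodies, and the difference between the antibodies was not tested. Of 41 such genes, all matched in the gene table, 15 had a pSmad1/5 peak (36.6%, against 27.3% of protein-coding genes). A pSmad3 peak was present at 18 (43.9%, against 24.4%). Both were present at 9 of the 41, against 14.1% of protein-coding genes, and neither at 17, against 62.4%. Among the 7 other Hes and Hey target genes, pSmad1/5 peaks lay at 1 (14.3%, against 27.3% of protein-coding genes). The pSmad3 peaks lay at 4 of the 7 (57.1%, against 24.4%), some only in the flank, up to 9372 bp from the gene. Hes1 and Hes6 had neither, and their loci are under 30 kb, a class with shares of 20.6% and 18.5%. Hes3 had 3 pieces of 1 pSmad1/5 call (highest percentile 92.3, maximum 31) and a weak pSmad3 peak 8019 bp away (percentile 6.8). Of the 16 genes that modify or process ligands and receptors, pSmad1/5 peaks lay at 7 and pSmad3 peaks at 8. The shares over protein-coding genes were 27.3% for pSmad1/5 and 24.4% for pSmad3. Furin, the convertase that cleaves Notch receptors on their way to the surface, had a pSmad3 peak over 1 end of the gene. This peak ran from 80375381 to 80391667, mostly outside the gene (80389194 to 80405441). Its total was above 92.1% of the list. Neurl1a, an E3 ligase acting on ligands, had 2 pSmad1/5 calls in 6 pieces (highest percentile 83.1) and 1 pSmad3 call in 2 pieces (92.1).

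The fringe enzymes Lfng and Rfng, which add sugars to Notch receptors, had both antibodies, with 3 and 2 pSmad1/5 and 3 and 1 pSmad3 peaks. Mib2, a ligand E3 ligase, had 1 and 1. In the nuclear complex each antibody had peaks at 3 of 6 genes, against 27.3% (pSmad1/5) and 24.4% (pSmad3) of protein-coding genes. Spen, a co-repressor, had 1 pSmad1/5 and 1 pSmad3 peak (percentiles 69.2 and 74.2), and the coactivator Maml2 had a pSmad1/5 peak alone (69.8). Rbpj itself, chosen after its values were seen, had none. Of 9 negative regulators, pSmad1/5 reached 3 (33.3%, against 27.3% of protein-coding genes) and pSmad3 reached 2 (22.2%, against 24.4%). Among them were Dtx1 with 3 and 1 peaks and Nrarp, a feedback inhibitor of Notch, with 1 and 2. The pSmad1/5 peak of Nrarp lay 9448 bp away, with a percentile of 16.8. Its pSmad3 peak with the higher total lay 9778 bp away, and the other touched the gene. The sheddases Adam10 and Adam17, the ligand-like Dlk2 and the E3 ligase Dtx2 had neither.

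Of 10 marker genes each, endothelium had 4 with pSmad1/5 and 2 with pSmad3, dental epithelium 5 and 0, and dental mesenchyme 1 and 2, against 27.3% and 24.4% of protein-coding genes. Whether cell composition plays a part in the peaks at the Notch genes was not tested.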

How the data were processed

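Molar tooth germs were profiled in 4 CUT&RUN libraries, 2 per antibody. Per the submitters' processing notes, the tools were Bowtie2, SAMtools and bedtools, with SEACR for calling peaks and deepTools, on build mm10, and no version is named. Not given in the sources used here: SEACR settings, a control library, and how calls of the libraries were joined. The deposited files are 1 list per antibody, with 10741 pSmad1/5 and 7905 pSmad3 lines (8380 and 7682 calls) and, per the labels, the total signal of each call, used as a score, and its maximum signal, both coverage in the authors' own scaling. Read depth is unknown, and precision cannot be given.

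Genes came from the RefSeq table of GRCm38.p6 (the assembly of mm10), without genes in the first 3 Mb of a chromosome. Strand came from the promoter table. A total's percentile is the share of lines in its list with a lower total. Counting used Python 3.11.15, pandas 2.3.3 and numpy 2.4.6, and was checked on simulated intervals. The 10 genes and all lists were chosen with earlier results of these data known. All 10 genes are named. Of the other pathway genes, the 6 per list with the highest total, those with peaks of both antibodies and the first 4 alphabetically without any are named. A gene this rule takes is not reported here. Alternatives covered the flank, minimum overlap, midpoint, region of the maximum and stricter lists.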

Additional observations from a re-analysis of the deposited data

How the results depend on the processing

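Of 94 recounts under other settings, 64 stayed within 1.5 times the value given and 30 did not. Requiring 500 bp of overlap with the locus or using peak midpoints left pSmad1/5 at 6 genes and pSmad3 at 4. No peak of these loci had a maximum above 2 times its list median. Dropping such peaks therefore could not change these counts, and those recounts are among the 64. Within 5 kb of a gene end, Notch1 was the 1 gene with pSmad1/5 (2 peaks, 1 call, 0 shared) and Notch1 and Notch3 the 2 with pSmad3 (2 peaks, 2 calls, 1 shared), against 16.4% and 15.4% of protein-coding genes, and 9 other pathway genes had pSmad1/5. With totals at or above the list median, Notch1 and Jag2 were the 2 genes left with pSmad1/5 (4 peaks, 2 calls; 14.4% of protein-coding genes), the same 4 genes kept pSmad3 (14.1%), and 9 other pathway genes had each antibody. With a 50 kb flank, 8 genes had pSmad1/5 (26 peaks, 18 calls; 47.3% of protein-coding genes) and 9 had pSmad3 (17 peaks, 17 calls; 42.4%), with 28 and 29 other pathway genes. With a 5 kb flank, and with none, pSmad1/5 had 6 peaks from 4 calls at 4 genes, losing Notch4 and Dll4. The pSmad3 peaks stayed at 4 genes with a 5 kb flank and lay at 3 with none, where 1 pSmad3 peak was shared. With no flank, 18.4% and 16.8% of protein-coding genes had pSmad1/5 and pSmad3. By the region of the maximum, pSmad1/5 had 7 peaks from 5 calls at 5 genes, losing Notch4. The share over all protein-coding genes was not counted for the 5 kb flank or the region of the maximum. Sharing over at least 50% of a peak's own width left 1 pSmad1/5 and 0 pSmad3 peaks. These settings change the window or the peaks counted by construction.

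No paired analysis was possible because each antibody has 1 list common to its libraries, which carries no replicate numbers. Leaving out a library was not run, as the lists hold no value per library. Depth is unknown, so a missing peak sets no upper limit on binding.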
